A study of Homo sapiens with 4 samples.

Results

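Genes that govern how many mitochondria a cell builds and how it removes damaged ones were measured in HK-2 cells, a human proximal tubule line made permanent in culture, with and without induction of the fusion protein PRCC-TFE3. The set consisted of 9 genes chosen by function, of the 34080 genes in the files. They are the coactivator genes PPARGC1A and PPARGC1B, the nuclear factor genes NRF1, TFAM and ESRRA, and the mitophagy genes PINK1, BNIP3, BNIP3L and FUNDC1. All 9 were found and all 9 passed the low-count filter, as did 13569 genes in total.

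Every library came from HK-2 cells that carry a Tet-On construct for an HA-tagged PRCC-TFE3, with no statement in the labels on whether it is 1 clone or a pool. The cells were grown with 0.2 microg/ml doxycycline, Doxy(+), or without doxycycline, Doxy(-), for 24 h, and polyadenylated RNA was sequenced. Each group has 2 libraries, numbered 1 and 2, and nothing states that the numbers mark separate cultures, so p-values measure only the spread between these libraries. Doxycycline is also known to inhibit the ribosomes of mitochondria. Cells without the transgene were not analysed here, so an action of the drug on mitochondria and an action of PRCC-TFE3 cannot be told apart.

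Mitochondrial biogenesis runs through a short cascade. PGC-1alpha and PGC-1beta, the products of PPARGC1A and PPARGC1B, bind no DNA themselves. They are recruited by factors such as ERRalpha (ESRRA) and nuclear respiratory factor 1 (NRF1), which switch on nuclear genes of mitochondria. Among these genes is TFAM, whose protein packages mitochondrial DNA and is needed for its transcription. Mitophagy is the opposite arm, in which the kinase PINK1 marks depolarised mitochondria for removal, while BNIP3, BNIP3L (NIX) and FUNDC1 sit in the outer membrane and bind the autophagy machinery directly. In the kidney, the proximal tubule relies on mitochondria for transport and depends on both arms. TFE3 and its relatives of the MiT/TFE family bind E-box sequences in genes of lysosomes, autophagy and energy metabolism.

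The libraries held between 14042545 and 16618401 estimated reads, of which 12654233 to 15012743 fell on annotated genes. TFE3 was at 66.9 and 69.1 CPM (reads per 1000000, scaled between libraries) in Doxy(-), compared with 367 and 322 CPM in Doxy(+). This difference lay on TFE3-204, with 338 and 333 reads in uninduced and 2921 and 2531 in induced cells, and on TFE3-203, with 54.3 and 69.8 against 1237 and 1240 reads. TFE3-201, the transcript annotated as protein coding, held 464 and 604 against 551 and 534 reads, and on protein-coding transcripts alone the log2 fold change of TFE3 was 0.09 (edgeR adjusted p 0.568) in place of 2.34. PRCC, the other partner of the fusion, was at 50.2 and 47.2 CPM in uninduced cells, and the induced libraries at 47.7 and 60.1 CPM. PAX8, a transcription factor of renal epithelium, was between 564.5 and 604.8 CPM, whereas the summed level of 6 transporter and receptor genes of the differentiated proximal tubule was at most 5.74 CPM in any library and SLC22A6 and SLC22A8 were at 0 in all. The summed level of 13 tubular epithelial and HK-2 markers was 3917 to 3918 CPM in Doxy(-) and 3083 to 3138 CPM in Doxy(+). VIM held the largest part, with means of 1540 CPM in Doxy(-) and 1081 CPM in Doxy(+). PAX2, ANPEP and AQP1 of the 13 had at most 3 reads in any library and were not tested. Of the 10 tested, VIM, KRT19, KRT8, KRT18, CDH2 and CDH6 fell, whereas MME (2.48-fold, edgeR adjusted p 0.00264) and GGT1 (18.8% higher, edgeR adjusted p 0.041) rose. The part of these differences in the results was not tested. Of the markers of other cell types, CDH5 and KDR of endothelium, CD3E of T cells and COL3A1 of fibroblasts were at 0 in every library. Others were detected at low levels, with sums of 0.476 to 0.543 CPM in Doxy(-) and 0.311 to 0.596 CPM in Doxy(+) for endothelium, 1.77 to 3.72 against 2.46 to 2.72 CPM for fibroblast and mural cells, 2.31 to 3.18 against 3.35 to 4.04 CPM for the distal nephron, and 0.0776 to 0.136 against 1.04 to 1.32 CPM for glomerular epithelium. The 3 leukocyte markers summed to 144 to 150 CPM in Doxy(-) and to 189 to 191 CPM in Doxy(+), nearly all of it CD68, a lysosomal protein that other cells also make.

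To ask which regulators differ once PRCC-TFE3 is induced, the 9 genes were read from a test over all 13569 genes with edgeR's quasi-likelihood method, in which a gene passed at an adjusted p under 0.05. PPARGC1A and PINK1 rose in Doxy(+), 0 of the 9 genes fell, and 7 did not pass. The passing share, 22.2%, lies near the 19.3% of all genes tested, of which 9.76% were higher and 9.53% lower. With the study's further limit of a log2 fold change over 1 in size, PPARGC1A was the only one of the 9, against 1.98% of all genes in both directions and 1.50% among higher genes. At an unadjusted p under 0.05 there were 4 higher and 0 lower genes among the 9, the others being BNIP3 and BNIP3L. That is 44.4% of the 9, beside 33.4% of all genes tested. DESeq2 gave the same 2 higher and 0 lower. The median log2 fold change of the 9 genes was 0.18, beside 0.00062 for all genes tested. In bulk RNA, fewer cells that use a gene and less RNA of it per cell cannot be told apart.

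**Figure D1:**
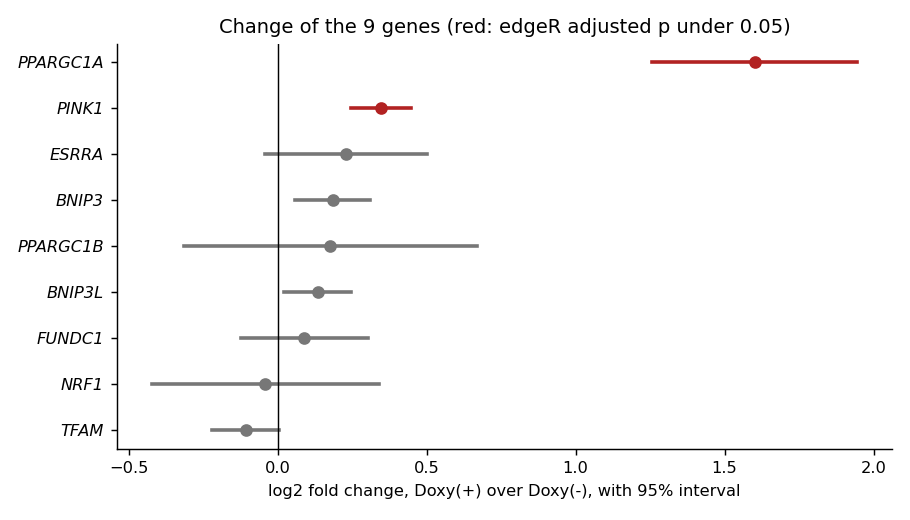
Log2 fold change of each of the 9 genes, Doxy(+) over Doxy(-), with its 95% interval from edgeR. PPARGC1A at 1.60 and PINK1 at 0.35 (red) passed at an adjusted p under 0.05, and the other 7 (grey) did not.

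PPARGC1A (ENSG00000109819.9, chromosome 4, 23755041 to 23904089, minus strand, hg38) showed the largest difference of the 9. Its level was 6.44 and 6.94 CPM in the Doxy(-) libraries and 18.3 and 22.3 CPM in the Doxy(+) libraries, on 83.0, 102.0, 236.0 and 300.2 estimated reads. Both induced libraries lay far above both uninduced ones. The group means were 6.69 ± 0.355 and 20.3 ± 2.84 CPM (SD, n = 2 each), a 3.04-fold rise with a 95% interval from 2.39 to 3.85 (edgeR adjusted p 0.00111, log2 fold change 1.60 with an SE of 0.141). By size of change it stood at place 171 of the 13569 genes, and by p at place 302. Over 16 alternatives its log2 fold change ran from 1.39 to 1.74 and passed the test in each.

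Most of the reads of PPARGC1A were placed on a pair of transcripts that start within the same first exon. PPARGC1A-201, which has an open reading frame of 798 codons, held 69.1 and 75.2 estimated reads in uninduced cells, then 181 and 226 in induced cells. PPARGC1A-204 held 12.9 and 23.6 reads in uninduced cells, then 46.4 and 60.7 in induced cells, so both were higher in each induced library. The share of PPARGC1A-204 in the reads of the gene was 15.5% and 23.1% in uninduced cells, then 19.7% and 20.2% in induced cells, and these ranges overlap. The other 13 transcripts in the files held at most 12.6 reads in any library.

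These transcripts differ at exon 7 and at the end. In PPARGC1A-204, exon 7 begins 31 bases earlier, at 23824384 in place of 23824353 on the minus strand, and those bases bring in a stop codon after 271 codons. This splice choice is the one known to encode NT-PGC-1alpha, a short form with the activation domain and without the RNA-binding part, although GENCODE lists PPARGC1A-204 as a target of nonsense-mediated decay. The sequence is shown because the stop is what separates their reading frames. It holds the last 12 bases of exon 6 followed by the first 13 of the added bases, with the stop in capitals.
PPARGC1A-204 exon 6 to 7: agagtcaccaaatttgtttttaTAA
These transcript values are estimates, since only reads that touch this junction or the last exon, 3905 bases long in PPARGC1A-201, tell the transcripts apart.

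The 250 bases before the start of PPARGC1A-201 (hg38, chr4:23890048-23890297, minus strand) were read from the genome because PPARGC1A-201 carried 76.4% of the reads of the most changed gene. They hold a single E-box of the forms CACGTG or CATGTG, printed in capitals, whose first base lies 47 bases before the start. Other forms of the E-box were not searched.
PPARGC1A-201 upstream: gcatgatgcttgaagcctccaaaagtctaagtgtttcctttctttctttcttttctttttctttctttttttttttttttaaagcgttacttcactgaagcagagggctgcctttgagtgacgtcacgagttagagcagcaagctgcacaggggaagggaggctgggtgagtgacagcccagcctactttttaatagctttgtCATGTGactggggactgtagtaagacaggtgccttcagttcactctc
The letters searched were CACGTG and CATGTG for E-boxes, AAGGTCA for ERR factors and ACGTG for HIF, the last being part of CACGTG. The palindromic NRF1 site was also searched, and each search covered both strands. A match describes the letters only.

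RefSeq start windows (GRCh38.p14, 250 bases before the start) were at hand for 6 of the 9 genes, in 7 windows, and not for PINK1, NRF1 or BNIP3L. Of the 7 windows, 4 held an E-box of either kind, and 15.23% of 34943 such windows of all genes did. With so few windows, and 2 of the 4 from PPARGC1A, this comparison is not a test. The 4 windows belong to PPARGC1A, with windows at 2 starts other than that of PPARGC1A-201, to ESRRA and to BNIP3. The distal PPARGC1A window, chr4:24472906-24473155, lies outside the span of the gene given above. PPARGC1B, TFAM and FUNDC1 had neither CACGTG nor CATGTG in their windows. The E-box of each, in capitals, is shown with its neighbouring bases so that the core letters can be compared with those of PPARGC1A-201.
PPARGC1A, chr4:23881213-23881242: gtgaatctgatcCATGTGtaaggaaaacag
PPARGC1A, chr4:24473011-24473040: agtcagcgcgccCACGTGacggccccggct
ESRRA, chr11:64305325-64305354: gggccgcgtacgCATGTGcgccgcagtggc
BNIP3, chr10:131982040-131982069: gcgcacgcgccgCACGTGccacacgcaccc
CACGTG was in 6.32% and CATGTG in 9.45% of all windows. AAGGTCA was found in none of the 7 windows, nor before PPARGC1A-201, against 3.44% of all windows. The same was so of the NRF1 site, which 1.02% of all windows held. ACGTG was found in the BNIP3 window and in the distal PPARGC1A window, as part of CACGTG in both, and in 18.49% of all windows.

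PPARGC1B (ENSG00000155846.17, chromosome 5, 149730298 to 149855022), the paralog of PPARGC1A, was at 8.22 and 6.12 CPM in uninduced cells, and the induced libraries at 7.30 and 8.86 CPM. The groups overlapped. Its log2 fold change of 0.18 (edgeR adjusted p 0.597, SE 0.202) had a 95% interval from -0.31 to 0.67, while that of PPARGC1A ran from 1.26 to 1.95. By CPM, PPARGC1A was below PPARGC1B in 1 of the Doxy(-) libraries and above it in both Doxy(+) libraries. CPM values are not scaled to length, so the order of levels is given per length below.

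The transcription factors under PGC-1 did not pass. ESRRA (ENSG00000173153.17, chromosome 11, 64305497 to 64316743), the orphan receptor ERRalpha and a main partner of PGC-1alpha, was at 26.5 and 21.5 CPM in uninduced cells, and the induced libraries at 28.3 and 27.9 CPM. The induced libraries were above the uninduced ones, but Doxy(-) 1 lay close to them. The log2 fold change was 0.23 (SE 0.112, 95% interval -0.04 to 0.50, edgeR adjusted p 0.212). Without Doxy(-) 1 it was 0.38 with an edgeR adjusted p of 0.0425, and 3 of the 9 genes then passed. The adjusted p of ESRRA ranged from 0.0425 to 0.614 over the alternatives. Exons of ESRRA overlap TRMT112 on the other strand, and although the library kit keeps strand, the strand setting of the counting is not stated.

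NRF1 (ENSG00000106459.15, chromosome 7, 129611720 to 129757082) was at 15.5 and 13.1 CPM in uninduced cells, and the induced libraries at 15.5 and 12.2 CPM. Its libraries overlapped fully. The log2 fold change was -0.04 (SE 0.156, 95% interval -0.42 to 0.34, edgeR adjusted p 0.885). Its reads were divided differently among its transcripts from library to library. NRF1-202 held 57.3 reads in Doxy(+) 2 and NRF1-203 held 48.4 in Doxy(+) 1, and both were near 0 elsewhere.

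TFAM (ENSG00000108064.11, chromosome 10, 58385345 to 58399220) was the gene of the set whose Doxy(+) libraries both lay below both Doxy(-) libraries, at 101.5 and 97.6 CPM in Doxy(-) against 92.3 and 92.4 CPM in Doxy(+). The groups did not overlap, but the step was small and did not pass (log2 fold change -0.11, SE 0.0464, 95% interval -0.22 to 0.01, edgeR adjusted p 0.167). Its non-coding transcript TFAM-202 held 149 and 240 reads in uninduced cells, then 103 and 109 in induced cells. The main coding transcript TFAM-204 held 828 and 919 in uninduced cells, then 769 and 789 in induced cells.

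**Figure D2:**
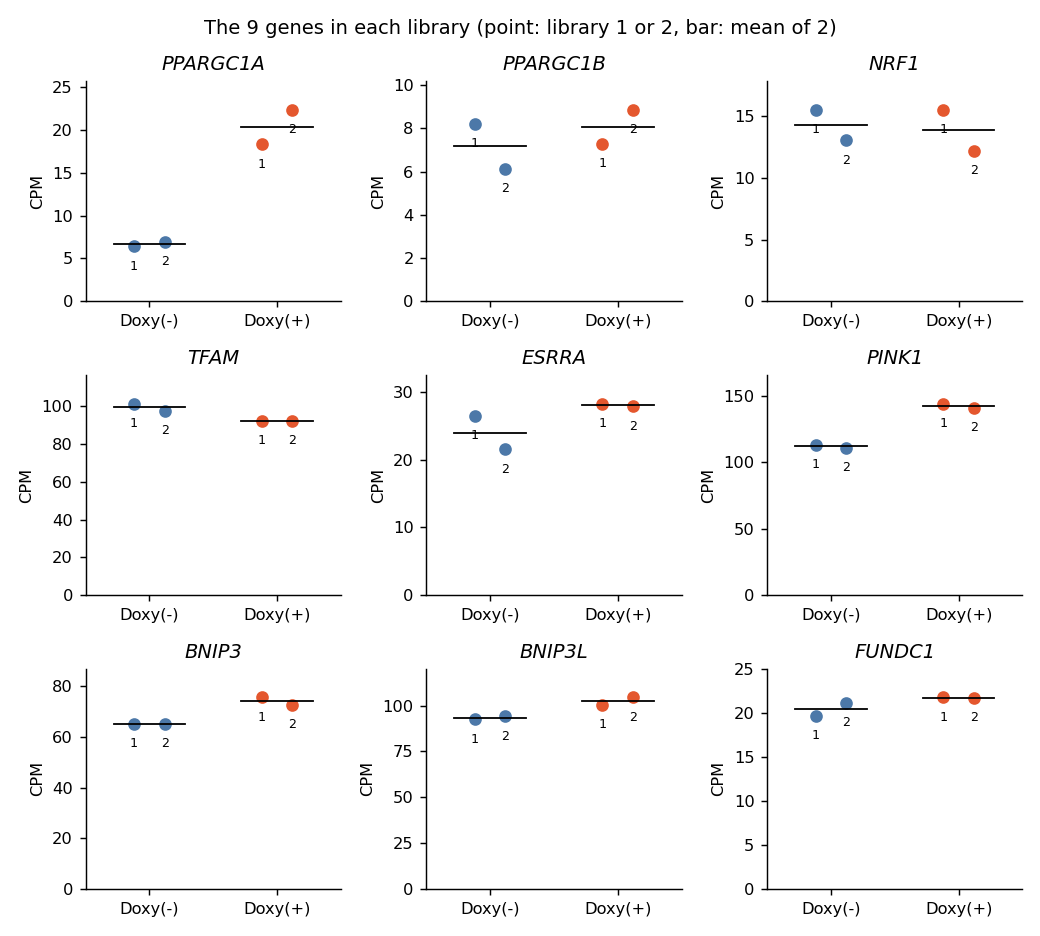
CPM of each of the 9 genes (vertical axes from 0, 1 panel per gene), with points for libraries 1 and 2 and a bar for the mean of each group. In PPARGC1A the Doxy(+) points at 18.3 and 22.3 CPM stand far above the Doxy(-) points at 6.44 and 6.94, PINK1 shows a smaller gap, and the groups of PPARGC1B and NRF1 overlap.

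Among the mitophagy genes, PINK1 (ENSG00000158828.8, chromosome 1, 20633458 to 20651511) rose. It was at 113 and 111 CPM in uninduced cells, and the induced libraries at 144 and 141 CPM, with the 2 libraries of each group close together. The means were 112 ± 1.86 and 142.5 ± 2.29 CPM (SD, n = 2 each), a 27.2% higher level (log2 fold change 0.35, SE 0.0409, 95% interval 0.25 to 0.45, edgeR adjusted p 0.0031). Over 16 alternatives its log2 fold change was between 0.33 and 0.40 and passed in each, with an adjusted p of at most 0.0364. PINK1-201, which encodes the full kinase, carried 82.7% of the reads, with 1215 and 1351 in uninduced and 1504 and 1583 in induced cells.

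None of the 3 outer membrane receptors passed. BNIP3 (ENSG00000176171.12, chromosome 10, 131967684 to 131981967), a receptor induced by low oxygen, was at 65.2 and 65.1 CPM in uninduced cells, and the induced libraries at 75.6 and 72.6 CPM. Its 13.7% difference missed the threshold (edgeR adjusted p 0.0553, log2 fold change 0.19 with an SE of 0.0516), and over 17 alternatives the adjusted p was from 0.0533 to 0.296. BNIP3 has 44 annotated pseudogenes. They held 82.8 estimated reads per library on average, and adding these reads to BNIP3 gave a log2 fold change of 0.14 with an adjusted p of 0.25.

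BNIP3L (ENSG00000104765.16, chromosome 8, 26383054 to 26505636), the related receptor NIX, was at 92.6 and 94.2 CPM in uninduced cells, and the induced libraries at 101 and 104.5 CPM. The induced libraries were higher by 9.74%, which did not pass (log2 fold change 0.13, SE 0.0465, 95% interval 0.02 to 0.25, edgeR adjusted p 0.101). Exons of PNMA2 lie across it on the other strand. FUNDC1 (ENSG00000069509.6, chromosome X, 44523639 to 44542859), a receptor controlled by phosphorylation, was at 19.7 and 21.2 CPM in Doxy(-), and at 21.8 CPM in both Doxy(+) libraries. Doxy(-) 2 was close to the induced libraries, and the log2 fold change of 0.09 (SE 0.0875, 95% interval -0.12 to 0.30, edgeR adjusted p 0.534) did not pass. Most of its reads, 81.3%, were placed on FUNDC1-202, a transcript with no annotated reading frame, and with protein-coding transcripts alone the value was -0.06.

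In 6 of the 9 genes (66.7%) both Doxy(+) libraries were above both Doxy(-) libraries, and in TFAM both were below. Groups that do not overlap made up 61.1% of all genes tested, with Doxy(+) above in 31.1% and below in 30.0%.

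To compare levels between the genes, TPM values, which are scaled to transcript length, were summed per gene. In Doxy(-) BNIP3 was highest, at 86.4 and 85.7 TPM. TFAM, BNIP3L and PINK1 followed with overlapping libraries between 65.3 and 79.3 TPM. Below them stood FUNDC1 at 28.1 and 30.8, ESRRA at 20.8 and 18.9 and NRF1 at 9.69 and 7.91 TPM, each apart from its neighbours. The coactivator genes were lowest, PPARGC1A at 1.85 and 3.05 and PPARGC1B at 1.51 and 1.14 TPM.

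In Doxy(+) the top was reordered. BNIP3 was at 102.6 and 98.6 TPM and PINK1, now second, at 91.1 and 87.3 TPM, above BNIP3L at 84.1 and 77.9 and TFAM at 72.9 and 74.3 TPM. PPARGC1A reached 7.87 and 7.95 TPM, inside the span of NRF1 at 10.02 and 6.76 TPM, while PPARGC1B remained lowest at 1.37 and 1.93 TPM. The TPM of PPARGC1A is less certain than its CPM, since single reads on its short transcripts weigh heavily. In Doxy(-) 2, PPARGC1A-205 and PPARGC1A-212 added 0.468 and 0.443 TPM with about 1 read each.

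**Figure D3:**
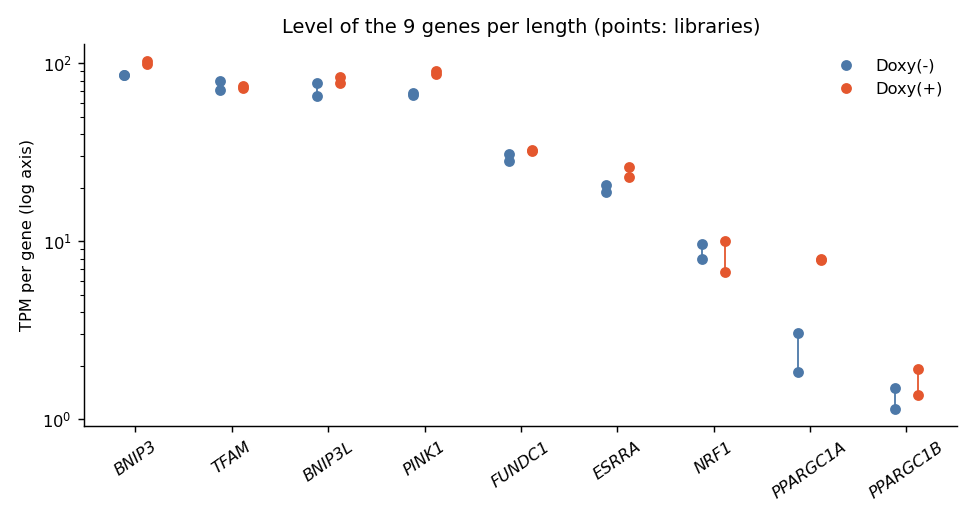
Level per length of each gene in TPM on a log axis, with points for the libraries of Doxy(-) (blue) and Doxy(+) (red), ordered by the mean in Doxy(-). BNIP3 is highest in both groups, PINK1 passes TFAM and BNIP3L in Doxy(+), and PPARGC1A rises from 1.85 and 3.05 to 7.87 and 7.95 TPM.

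Other genes of these pathways were then counted by list. Of 20 tested partners and upstream regulators of PGC-1 and NRF1, 2 rose, 2 fell and 16 did not pass (median log2 fold change -0.03). PPRC1, the third member of the PGC-1 family, fell from 149 ± 5.16 to 123 ± 1.73 CPM (SD, n = 2 each; edgeR adjusted p 0.00802, log2 fold change -0.28 with an SE of 0.0437). It therefore went the other way from PPARGC1A. SIRT1, a deacetylase that acts on PGC-1alpha, rose from 60.9 ± 2.06 to 73.1 ± 0.684 CPM (0.26, SE 0.0536, edgeR adjusted p 0.0207). SIRT1 did not pass without Doxy(-) 1 (edgeR adjusted p 0.0503), Doxy(+) 1 (0.109) or Doxy(+) 2 (0.123), and PPRC1 did not without Doxy(+) 1 (0.0691). PPRC1 had an adjusted p of 0.188 with limma on log2(TPM + 0.1). Over 16 alternatives, SIRT1 did not pass in 7 and PPRC1 did not in 4. With limma on log2(TPM + 1) and with length-scaled counts, 0 genes of the list passed in either direction. For the list, 0 rose and 0 fell without Doxy(+) 1, 0 and 2 without Doxy(+) 2 or without Doxy(-) 1, and 2 and 1 without Doxy(-) 2.

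Genes that copy, repair and transcribe mitochondrial DNA mostly did not pass. Of 22 tested, 2 rose and 1 fell, with a median of -0.04. The protease LONP1, which also degrades TFAM, rose from 160.0 ± 5.78 to 195 ± 7.51 CPM (edgeR adjusted p 0.00895, log2 fold change 0.29 with an SE of 0.0463), and the helicase TWNK fell from 44.8 ± 4.45 to 33.5 ± 0.567 CPM (-0.42, SE 0.0831, edgeR adjusted p 0.0192). LONP1 did not pass without Doxy(+) 1 (edgeR adjusted p 0.0706), with length-scaled counts (0.207) or with limma (0.182 and 0.187 at the larger and smaller pseudocount). TWNK did not pass without Doxy(+) 1 (0.0924), without Doxy(+) 2 (0.0721) or with unmatched identifiers tested beside the genes (0.0819). For the list, 0 rose and 0 fell without Doxy(+) 1, 1 and 0 without Doxy(+) 2, and 1 and 1 without Doxy(-) 1.

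The 13 messages of mitochondrial DNA itself took 4.12% and 4.63% of gene reads in uninduced cells and 4.23% and 4.40% in induced cells, with overlapping groups. By edgeR 0 of 13 passed and 0 had an unadjusted p under 0.05, and DESeq2 gave 0 as well. Their median log2 fold change was -0.08, and values ran from -0.11 to 0.09. MT-CO1, which had the smallest p, was at 10400 and 11310 CPM in uninduced cells, and the induced libraries at 10150 and 10360 CPM, and MT-CO3 at 4650 and 5228 against 4521 and 4686 CPM. These counts turned on 1 library. Without Doxy(-) 1, 11 of the 13 passed as lower, and without Doxy(-) 2, 2 passed as higher.

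Fuel oxidation genes that respond to PGC-1 and ERR factors went both ways. Of 24 tested, 4 rose and 2 fell, and 18 did not pass (median 0.04). Without Doxy(+) 1 or Doxy(+) 2, 2 rose and 2 fell, and without Doxy(-) 1 or Doxy(-) 2, 4 rose and 1 fell. HADHB, a subunit of the trifunctional enzyme of fatty acid oxidation, rose from 119 ± 2.06 to 169 ± 6.24 CPM (edgeR adjusted p 0.00111, log2 fold change 0.50 with an SE of 0.0443). ACADVL, the dehydrogenase for very long chains in the same pathway, fell from 369.5 ± 8.51 to 265 ± 1.93 CPM (-0.48, SE 0.0334, edgeR adjusted p 0.000521). On protein-coding transcripts alone the log2 fold change of ACADVL was -0.17 and did not pass (edgeR adjusted p 0.523).

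In the PINK1 pathway of mitophagy 5 of 26 tested genes rose, 2 fell and 19 did not pass (median 0.04). Without Doxy(+) 1, without Doxy(+) 2, with limma on log2(TPM + 1) and with length-scaled counts, 2 rose and 0 fell. Without Doxy(-) 1 or Doxy(-) 2, 4 rose and 3 fell. SQSTM1, the receptor p62 that gathers ubiquitin-tagged cargo, was at 43.5 and 44.1 CPM in uninduced cells, and the induced libraries at 148 and 215 CPM (edgeR adjusted p 0.00103, log2 fold change 2.05 with an SE of 0.177). It was the gene of the list past the log2 limit of 1. RAB7A, a GTPase of late endosomes that also acts in mitophagy, rose from 360 ± 1.87 to 521 ± 7.30 CPM (0.53, SE 0.0297, edgeR adjusted p 0.000265).

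Receptors other than the members, with their kinases and repressors, were split. Of 18 tested, 2 rose and 3 fell, with 13 not passing and a median of -0.08. Without Doxy(+) 1, 0 rose and 1 fell, and without Doxy(+) 2, 1 rose and 1 fell. BCL2L13, an outer membrane receptor, rose from 91.8 ± 1.32 to 115 ± 2.17 CPM (edgeR adjusted p 0.00513, log2 fold change 0.33 with an SE of 0.0444), and ATAD3A, an inner membrane protein that restrains PINK1, fell from 95.7 ± 1.19 to 74.2 ± 0.479 CPM (-0.37, SE 0.0465, edgeR adjusted p 0.00402). BCL2L13 did not pass without Doxy(+) 1 (0.0545), and on protein-coding transcripts alone its log2 fold change was 0.06 (0.631). With limma and with length-scaled counts its adjusted p was between 0.0738 and 0.0766. ATAD3A did not pass on protein-coding transcripts alone (log2 fold change -0.56, edgeR adjusted p 0.229).

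Of 18 genes of fission and fusion, 7 rose and 1 fell (44.4% passing, beside 19.3% of all genes tested, median 0.09). The list was chosen with earlier results of these data known, so this share is no test of enrichment. MFN1, which fuses outer membranes, rose from 107 ± 3.15 to 137 ± 4.87 CPM (edgeR adjusted p 0.00469, log2 fold change 0.36 with an SE of 0.0477), and OPA1, which fuses inner membranes, from 133.5 ± 7.02 to 170 ± 6.69 CPM (0.35, SE 0.0529, edgeR adjusted p 0.0075). This count rested on each Doxy(+) library, as 1 rose and 0 fell without Doxy(+) 1 and 2 rose and 0 fell without Doxy(+) 2. With limma on log2(TPM + 1) and with length-scaled counts, 0 of the 18 passed in either direction. With protein-coding transcripts alone, 2 rose and 0 fell. MFN1 did not pass in 4 of 16 alternatives, and OPA1 did not in 4 of 16. On protein-coding transcripts alone MFN1 did not pass (edgeR adjusted p 0.162), and without Doxy(+) 1 neither did OPA1 (0.0578).

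**Figure D4:**
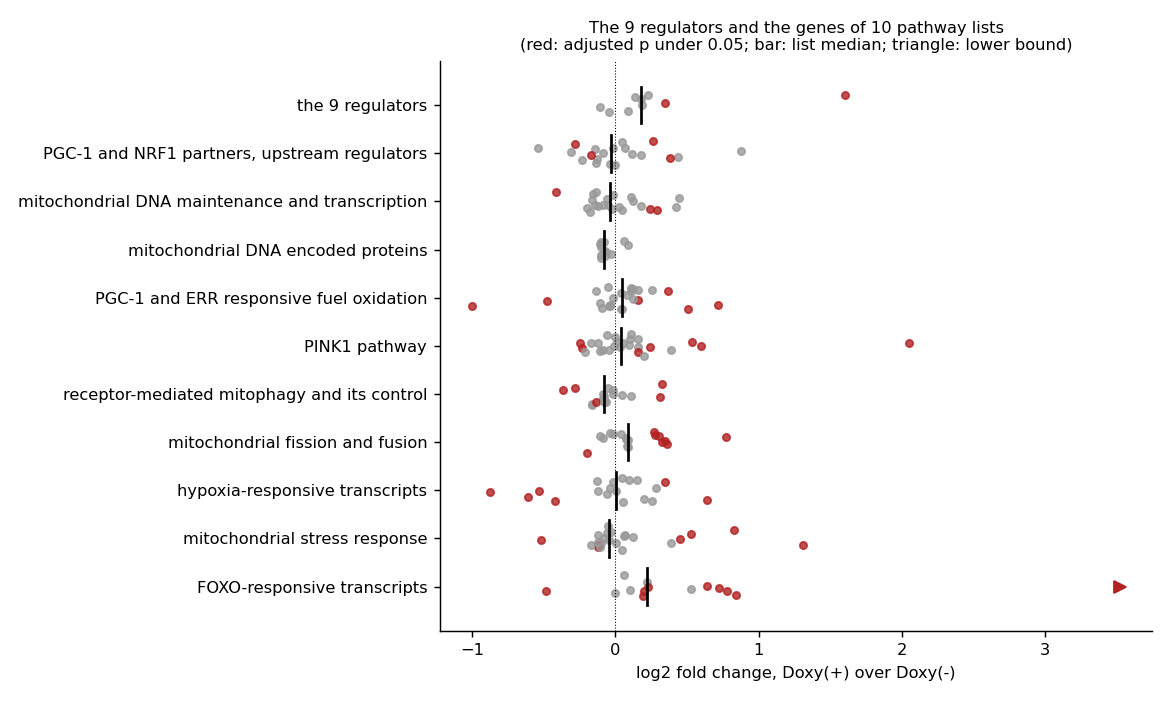
Log2 fold change, Doxy(+) over Doxy(-), of the 9 regulators and of the tested genes of 10 pathway lists (red points passed at an adjusted p under 0.05, grey did not, black bars are list medians). PPARGC1A at 1.60, SQSTM1 at 2.05 and DDIT3 at 1.31 stand apart, list medians lie between -0.08 and 0.22, and the triangle marks TRIM63, which was at 0 in Doxy(-), at its lower bound.

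Profiles over the 4 libraries were compared between the genes that rose and the 196 other tested genes of the lists, as distances between log2 CPM values centred on each gene's mean. DDIT3 (distance 0.422) and SQSTM1 (0.486) were nearest to PPARGC1A, with log2 fold changes of 1.31 and 2.05. Nearest to PINK1 were BCL2L13 (0.0216) and DDIT4 (0.0271), at 0.33 and 0.35, of which DDIT4 did not pass without Doxy(+) 1 (edgeR adjusted p 0.0631). With 4 libraries, such a distance mainly records a fold change of similar size.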

How the data were processed

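RNA of 4 libraries was analysed. The study's methods name single-end reads, trimming with Trim Galore 0.6.6 and cutadapt 2.5, STAR 2.7.9a, hg38 and RSEM, and DESeq2 for testing, after a stranded library kit. The deposited files instead have the column layout of kallisto, over 180253 Ensembl transcripts, and the quantifier's version and strand setting are not given in the sources used here. They hold estimated counts, which the authors left unnormalized and which are not whole because shared reads are divided, and TPM values, which the authors' quantifier scaled to length and library size. The deposited effective lengths were identical in all files.

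Transcripts were joined to genes through GENCODE release 44 on hg38. Of them 150691 (83.6%) matched, and the unmatched remainder, 9.66% to 9.89% of each library's counts, stayed out of library sizes and tests. Counts were summed per gene, rounded and, in R 4.3.3, tested by edgeR 4.0.16 (glmQLFit, glmQLFTest, TMM, filterByExpr, two-sided, group as the only term), with Benjamini-Hochberg adjustment over all genes tested. The script was tested on simulated data. CPM uses TMM-scaled totals. A count of 0 allows up to 3 reads, or 0.218 CPM in uninduced and 0.228 CPM in induced libraries. This limit covers counting error only, since reads carry no molecular identifiers.

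Alternatives were RLE factors, DESeq2 1.42.0, no filter, a mean CPM of at least 1, a replicate block, each library left out, unrounded counts, limma 3.58.1 on log2(TPM + 1) and log2(TPM + 0.1), length-scaled counts, protein-coding transcripts only and copies added. Testing the unmatched identifiers beside the genes and adding BNIP3 pseudogenes were chosen after seeing the data. The 9 genes and all lists were chosen with earlier results of these data known. Named genes are the 9, TFE3 and PRCC, the 2 of each list with the smallest p, those past both limits and the 2 nearest profiles. Exon overlaps and pseudogenes were checked for the 9 genes only.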

Additional observations from a re-analysis of the deposited data

How the results depend on the processing

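For the 9 genes, 140 of 145 values under the alternatives kept their direction and their side of the threshold, among them all 16 of PPARGC1A and all 16 of PINK1. ESRRA passed without Doxy(-) 1. Leaving out 1 library at a time, PPARGC1B ranged from -0.025 (without Doxy(-) 2) to 0.40, NRF1 from -0.22 to 0.12, with 0.08 without Doxy(-) 1, and PRCC from -0.029 (without Doxy(+) 2) to 0.30. FUNDC1 was -0.059 on protein-coding transcripts. PRCC was -0.15 with limma at either pseudocount and -0.19 with length-scaled counts. By CPM in place of TPM, 6 of the 9 genes took another rank in Doxy(-).

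Counts over all genes (1325 higher, 1293 lower) and over the pooled lists (36 higher, 19 lower) moved more. They were 642, 334, 14 and 7 with limma on log2(TPM + 1), 624, 324, 13 and 7 on log2(TPM + 0.1), 677, 583, 15 and 9 with length-scaled counts, 816, 780, 20 and 9 on protein-coding transcripts, and 644, 616, 19 and 10 with unmatched identifiers tested beside the genes. Leaving out 1 library gave 647 to 1233, 565 to 1308, 14 to 34 and 8 to 31, with the fewest without Doxy(+) 1. Past the log2 limit of 1, 203 genes were higher and 65 lower, against 129 and 34 with limma on log2(TPM + 1), 39 lower on log2(TPM + 0.1), and 111 and 29 with unmatched identifiers. The causes were not tested.

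Over all genes tested, the deviations of same-numbered libraries from their group means had a correlation of -0.0147, and the numbers were not taken as pairs. This value cannot exclude pairing, since single genes can still vary with the number. The share of mitochondrial DNA messages was lower in library 1 than in library 2 of both groups (4.12% and 4.63% in Doxy(-), 4.23% and 4.40% in Doxy(+)). With a replicate block, 2 of the 9 genes were higher and 0 lower, PPARGC1A was at 1.60 and PINK1 at 0.35, and all genes gave 1282 higher and 1261 lower. With 2 libraries per group, the intervals of NRF1, PPARGC1B and ESRRA span a range of values, and a p above the threshold does not show that a gene did not differ.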

Other observations

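A further 3 lists cover stimuli that are known to act on these regulators, and an action of these stimuli here was not tested. Of 19 tested transcripts that respond to low oxygen, as BNIP3 does, 2 rose, 4 fell and 13 did not pass, with a median log2 fold change of 0.0013. Without Doxy(+) 1, 1 rose and 3 fell. P4HA2, a collagen prolyl hydroxylase, fell from 328 ± 4.09 to 179 ± 1.57 CPM (SD, n = 2 each; log2 fold change -0.87, edgeR adjusted p 8.05e-05), and LDHA, lactate dehydrogenase A, fell from 534 ± 0.810 to 399 ± 1.46 CPM (-0.42, edgeR adjusted p 0.000447). BNIP3, at 0.19, did not pass.

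Of 14 tested among 17 listed FOXO-responsive transcripts, a group to which PPARGC1A and PINK1 are also known to belong, 8 rose and 1 fell. The passing share was 64.3%, beside 19.3% of all genes tested, and the median was 0.22. The list was chosen with earlier results of these data known, so this share is no test of enrichment. With limma on log2(TPM + 1), 4 rose and 1 fell. Leaving out Doxy(+) 1 or Doxy(+) 2 left 4 that rose in each case, and protein-coding transcripts alone also left 4. SOD2, the superoxide dismutase of mitochondria, rose from 747 ± 10.4 to 1342 ± 7.25 CPM (0.85, edgeR adjusted p 5.56e-05), and FBXO32, a ubiquitin ligase subunit, from 38.8 ± 1.24 to 64.1 ± 0.467 CPM (0.72, edgeR adjusted p 0.000734), though on protein-coding transcripts FBXO32 did not pass (edgeR adjusted p 0.0529). TRIM63 had 0 reads in both Doxy(-) libraries and 2.51 CPM on average in Doxy(+), at least 11.5-fold higher than the floor of 3 reads per library.

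Mitochondrial stress genes were split, with 4 of 23 higher, 3 lower and a median of -0.04. Without Doxy(+) 1 or Doxy(+) 2, 4 were higher and 1 lower. DDIT3 (CHOP) rose from 29.2 ± 3.52 to 72.2 ± 0.473 CPM (1.31, edgeR adjusted p 0.000418) and the secreted factor GDF15 from 176 ± 10.2 to 312 ± 10.2 CPM (0.83, edgeR adjusted p 0.000333).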
